A study of Panicum sumatrense with 28 samples.

Results

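The comparison described here sets the late panicle of genotype JK-8 of little millet, the cereal Panicum sumatrense, against its middle panicle. It rests on 6 of the 28 libraries of the series: 3 labelled Panicle late, taken 85 days after sowing, and 3 labelled Panicle mid, taken at 73 days. All plants were untreated, of the same genotype and kept in a growth chamber, and both groups are whole panicles as the labels name them. Whether the replicates are separate plants is not in the labels, and the p-values therefore measure only the spread between libraries, which may be technical. The other 22 libraries, from 8 tissues (early panicle, vegetative stem, crown meristem, young leaf and root, plumule, radicle and germinating seed), served to estimate the spread and to show where else a transcript was present. For single transcripts the spread was pooled within tissues over all 28 libraries. That pooled spread can understate the spread of the 6 compared libraries.

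The panicle is the branched flower head of a grass. Its flowers open, are pollinated and set grain, and the grain then fills: the endosperm stores starch and protein for the seedling, and the embryo matures and later dries. The labels do not say which of these stages 73 and 85 days correspond to. Each row of the deposited table is 1 transcript of a de novo assembly with no gene name, so transcripts are given by their Trinity identifier, no role is given to any of them, and the tissue labels could not be checked against marker genes. In such an identifier the part up to the letter c and its number names the read cluster, a group of assembled contigs that share sequence, and transcripts of the same read cluster can share reads.

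Values are TPM (a length-corrected abundance relative to the whole library) scaled between libraries by TMM, a factor per library that equalizes most transcripts. Of 101935 transcripts, 77548 reached 1 in 2 or more of the 28 libraries and were tested. Shares of a library total, in percent, do not depend on the TMM factor. In these bulk samples fewer cells of a type and less RNA per cell cannot be told apart.

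One library stood apart before any transcript was called. Mid library 1 correlated with mid libraries 2 and 3 at a Pearson's r of 0.909 and 0.898 over the log2 values of 77548 transcripts, and with late libraries 1, 2 and 3 at 0.903, 0.893 and 0.877. Mid libraries 2 and 3 correlated with each other at 0.930, and with the late libraries at 0.818 to 0.856. Transcripts are not independent replicates, and these values describe the libraries. Results are therefore given with and without mid library 1.

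The library total was far more concentrated in the late panicle. The 10 most abundant transcripts of each library held 34.4%, 35.6% and 26.8% of the total in late libraries 1, 2 and 3. In mid libraries 1, 2 and 3 they held 5.72%, 4.26% and 3.80%. The groups did not overlap, and the means differed by 27.7 percentage points (32.2% ± 4.77 against 4.59% ± 1.0, SD, n = 3 each; two-sided exact permutation test, p = 0.10, the smallest that 3 against 3 can give). Without mid library 1 the difference was 28.2 percentage points.

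Far fewer transcripts made up 50% of the late total: 131, 100 and 291 in late libraries 1, 2 and 3. In mid libraries 1, 2 and 3 the numbers were 1889, 1915 and 1948. All late libraries thus lay below all mid libraries. Fewer transcripts also reached a value of 1, with 34408, 34493 and 33995 in the late libraries and 37210, 35772 and 38144 in the mid libraries. The mean difference was -2743, again with an exact permutation p of 0.10, the smallest possible. It was -6365 with each library set to the same sum and -1566 for a value of 5 in place of 1.

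**Figure D1:**
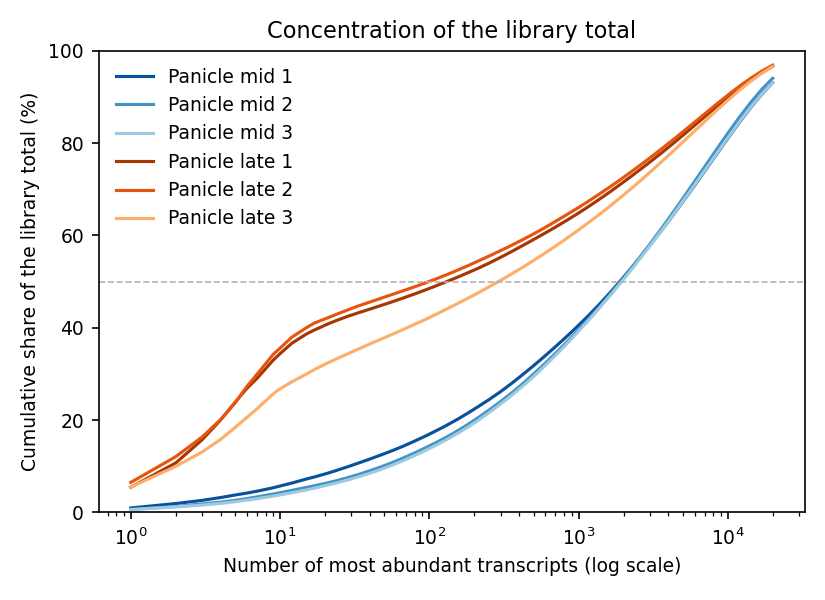
Cumulative share of the library total (y axis, %) against the number of most abundant transcripts (x axis, log scale) for each panicle mid library (blue) and each panicle late library (orange). The late curves cross 50% (dashed line) at 100 to 291 transcripts and the mid curves at 1889 to 1948.

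Between 73 and 85 days, 2176 transcripts rose (2.81% of those tested) and 3999 fell (5.16%), 7.96% together, by limma with a Benjamini-Hochberg adjusted p below 0.05 and a log2 difference of at least 1. Rises reached further than falls. The log2 difference was 4 or more for 221 rising and 64 falling transcripts, and 8 or more for 23 rising and 0 falling. The median was 1.82 for rising transcripts and -1.58 for falling ones, against 0.00 over all transcripts tested. Every late library lay above every mid library for 1860 of the 2176 rising transcripts, and below for 3360 of the 3999 falling ones. The choice of these transcripts on the same libraries favours such separation. Over all transcripts tested such separation occurred upward for 7.18% and downward for 12.7%.

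The balance of both directions depended on the scaling. Rising transcripts were 35.2% of the calls on the deposited values and 12.5% once each library was set to the same sum. They were 45.8% after quantile normalization and 58.5% when each library was centred on its median, so median centring turned the balance. Relative to the deposited scale, the median log2 difference of all transcripts was shifted to -0.17 by the common sum and to 0.27 by median centring. The number of calls also depended on which libraries and transcripts entered the limma fit. With only the 6 compared libraries 205 transcripts rose (0.264%) and 247 fell (0.319%). With the same 6 libraries and only the 42483 transcripts that reached 1 in 2 or more of them, a choice made after the data were seen, 1142 rose (2.69%) and 1838 fell (4.33%).

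Leaving out mid library 1 raised both counts. Without it 2447 transcripts rose (3.16%) and 4786 fell (6.17%). Of the 2176 rising transcripts, 1927 were also called without that library, and of the 3999 falling ones 3552 were. The fit without it added 520 rising and 1234 falling transcripts.

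The rising transcripts made up a large part of the late panicle's library total. Together they held 49.2%, 51.8% and 44.8% of late libraries 1, 2 and 3. Their share of mid libraries 1, 2 and 3 was 8.66%, 1.69% and 2.00%, so mid library 1 held more than either of the others. The gain was 44.5 percentage points (48.6% ± 3.53 against 4.12% ± 3.94, SD, n = 3 each) and 46.8 without mid library 1. Because these transcripts were chosen on the same libraries, the gain is a description with no test. In the early panicle at 61 days the same transcripts held 1.97% to 2.08%.

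The other side of this gain was spread widely. Falling transcripts held 11.7%, 17.3% and 19.5% of mid libraries 1, 2 and 3 and 2.54%, 2.49% and 2.51% of late libraries 1, 2 and 3, a loss of 13.6 percentage points. In early panicle they held 10.4% to 12.4%. All other transcripts together lost 30.9 percentage points. On the deposited scale, the summed value outside the rising transcripts was 584250 ± 10513 in the late and 702638 ± 59963 in the mid panicle (SD, n = 3 each), while the library total was 1140551 ± 81443 and 732062 ± 37529. Those transcripts therefore lost much more as a share of the total than on the scaled values.

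**Figure D2:**
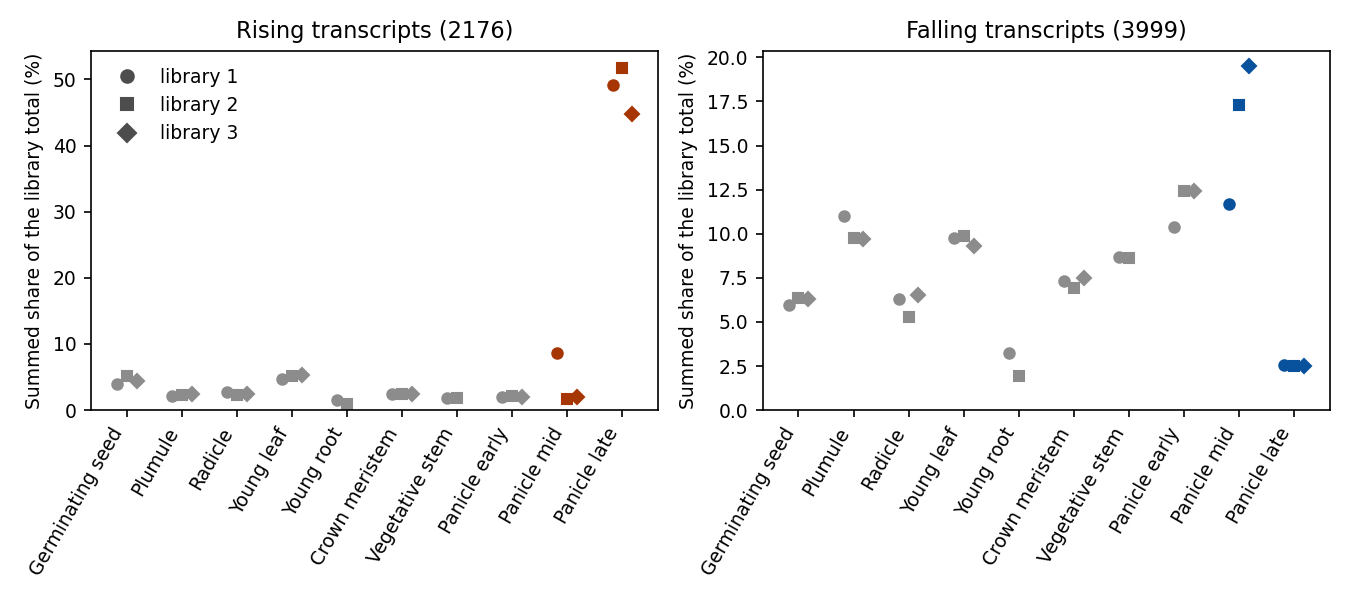
Summed share of the library total (y axis, %) held by the 2176 rising (left) and the 3999 falling transcripts (right) in each of the 28 libraries, by tissue; each point is 1 library, and mid and late panicle are coloured. Rising transcripts reach 44.8% to 51.8% in late panicle and 8.66% in mid library 1, and in all other libraries they stay at or below 5.29%.

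A few transcripts carried the gain. The largest single gain accounted for 5.52 percentage points, the 10 largest for 30.9 and the 100 largest for 41.2, which is 92.5% of the whole gain. By level, 37 rising transcripts had a late mean of 1000 or more and gained 38.7 percentage points between them. A further 205 with a late mean of 100 to 1000 gained 3.89 percentage points. The 1010 that stayed below 10 gained 0.312.

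The 8 transcripts with the largest gain in share had one pattern. They had 18058 or more in every late library, 1209 to 6761 in mid library 1, 34.1 to 533 in mid library 3 and at most 1.52 in mid library 2. In every one of them the groups did not overlap.

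TRINITY_DN58295_c0_g1_i1, the most abundant, had 56312, 79892 and 58653 in late libraries 1, 2 and 3 and 2835, 1.35 and 204 in mid libraries 1, 2 and 3. Its log2 difference was 9.17 (SE 1.68, limma adjusted p = 7.3e-04), and 11.51 (SE 1.55, adjusted p = 1.6e-05) without mid library 1. Its share of the late total was 5.67% on average. In early panicle it had 8.20, 2.72 and 2.49, close to mid library 2.

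TRINITY_DN22841_c0_g1_i1 followed with 59162, 68451 and 47802 in the late libraries. Its mid values were 2901, 0.640 and 48.6, which again put mid library 1 far above the other mid libraries. The log2 difference was 9.87 (SE 1.63, limma adjusted p = 2.5e-04). It held 5.10% of the late total.

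TRINITY_DN28267_c0_g1_i1 was already the most abundant transcript of mid library 1, at 6761, against 0.802 and 533 in mid libraries 2 and 3. In late libraries 1, 2 and 3 it had 61318, 46630 and 29293. The highest late value was thus in library 1 and the lowest in library 3. Its log2 difference was 7.87 (SE 1.69, limma adjusted p = 0.0032), with 10.46 without mid library 1, and its call was lost after quantile normalization (5.09, adjusted p = 0.11).

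Some of these transcripts share a read cluster with another abundant one. TRINITY_DN7872_c0_g1_i4 had 43157, 52097 and 33133 in the late libraries and 2620, 1.52 and 48.1 in the mid libraries. From the same read cluster, TRINITY_DN7872_c0_g2_i1, chosen after its values were seen, had 15831, 16457 and 11695 in late and 2625, 0 and 53.7 in mid libraries 1, 2 and 3. Because both can share reads, they are not counted as independent evidence.

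The number DN11647 is borne by transcripts of different read clusters. TRINITY_DN11647_c0_g2_i1 had 48598, 43984 and 18058 in late libraries 1, 2 and 3 and 4778, 0 and 137 in the mid libraries. Its log2 difference was 8.60 (SE 1.93, limma adjusted p = 0.0045), and the call was lost after quantile normalization (5.77, adjusted p = 0.079). TRINITY_DN11647_c1_g1_i8, of another read cluster with that number, had 33904, 44299 and 27447 in late and 1209, 0.226 and 34.1 in mid. Its values were highest in late library 2, unlike those of the former, which were highest in late library 1. In the read cluster of TRINITY_DN11647_c0_g2_i1, TRINITY_DN11647_c0_g1_i7 had 11925, 10491 and 4896 in late and 1360, 0 and 31.4 in mid. TRINITY_DN11647_c0_g1_i7 was chosen after its values were seen. As both can share reads, they are not counted as independent evidence either.

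TRINITY_DN24158_c0_g1_i2 had 22120, 31985 and 23615 in the late libraries and 1404, 0.602 and 99.3 in the mid libraries. TRINITY_DN11973_c0_g1_i1 had 24017, 28194 and 19494 in late and 1423, 0 and 44.7 in mid. Both repeated the order of the mid libraries seen above. Their log2 differences were 8.71 (SE 1.37) and 9.20 (SE 1.47), with limma adjusted p of 1.4e-04 and 1.8e-04.

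None of these 8 passed limma with only the 6 compared libraries, where their adjusted p ran from 0.26 for TRINITY_DN11647_c1_g1_i8 to 0.99 for TRINITY_DN28267_c0_g1_i1. With the 42483 transcripts filtered on those libraries it ran from 0.049 for TRINITY_DN11647_c1_g1_i8, which was called, to 0.13 for TRINITY_DN28267_c0_g1_i1. The transcripts called as rising gained 1.67 and 11.9 percentage points in these fits, against 44.5 above. The fit over all 28 libraries pools their spread within tissues. For TRINITY_DN58295_c0_g1_i1 the mid values ran from 1.35 to 2835, and the early panicle values from 2.49 to 8.20. Its limma adjusted p was 7.3e-04 in that fit and 0.85 with only the 6 libraries. Fewer libraries also left fewer residual degrees of freedom, 4 in place of 18.

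The same mid pattern held across most of the 37 abundant rising transcripts. Mid library 1 was the highest mid library in 36 of them, and mid library 2 the lowest in 30, with 29 below 1 and 16 listed at 0. In 28 of them mid library 1 lay at least 4-fold above both other mid libraries on the log2(value + 1) scale. Together the 37 held 5.46%, 0.105% and 0.315% of mid libraries 1, 2 and 3, and 42.6%, 44.4% and 34.8% of late libraries 1, 2 and 3. In early panicle they held 0.0849% to 0.107%, about the level of mid library 2.

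Few of the 37 were abundant anywhere else. In 32 of them the mean of each of the 8 other tissues was below 100. Among the others was TRINITY_DN4158_c0_g1_i6, with 2185, 1425 and 630 in the late and 411, 227 and 220 in the mid libraries but a mean of 15719 in young leaf (log2 difference 2.19, limma adjusted p = 0.030). Another of them, TRINITY_DN17892_c0_g1_i1, had 1954, 3043 and 4605 in late and 101, 61.3 and 40.9 in mid, with 1151 ± 276 in germinating seed and a mean of 2125 in young root (5.55, adjusted p = 2.2e-09). Both were chosen after their values were seen.

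Ranked by log2 difference rather than by share, the rises were led by TRINITY_DN31619_c0_g1_i3, with 22584, 25027 and 16758 in late and 255, 0.167 and 8.24 in mid libraries. Its log2 difference of 10.56 (SE 1.13, limma adjusted p = 1.3e-06) became 12.65 (SE 0.78) without mid library 1. TRINITY_DN7872_c5_g1_i1 had 4633, 7127 and 5559 in late and 63.8, 0.219 and 0.275 in mid. It had little in mid libraries 2 and 3, and its log2 difference was 10.25 (SE 1.04, adjusted p = 6.4e-07).

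Another pair of large rises differed in both groups. TRINITY_DN15219_c0_g1_i1 had 0.898, 0.118 and 0.0750 in mid libraries 1, 2 and 3, and 860, 2365 and 3619 in late libraries 1, 2 and 3. TRINITY_DN1656_c1_g1_i5 had 3.03, 0.185 and 0 in mid and 1100, 1741 and 2968 in late. Both stayed at 3.03 or below in all mid libraries, with mid library 1 again the highest mid library. Their highest values were in late library 3. Of the 37 abundant transcripts, that library was the lowest late library for 21 and the highest for 10. It was the highest late library for 51.6% of all rising transcripts.

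Their log2 differences were 10.53 (SE 0.41, limma adjusted p = 4.9e-13) and 10.05 (SE 0.43, adjusted p = 1.0e-12). TRINITY_DN15219_c0_g1_i1 and TRINITY_DN1656_c1_g1_i5 also passed with only the 6 compared libraries, at adjusted p of 0.015 and 0.023. Outside the panicle both were highest in germinating seed, at 25.3 ± 10.2 and 13.2 ± 7.16 (SD, n = 3 each).

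**Figure D3:**
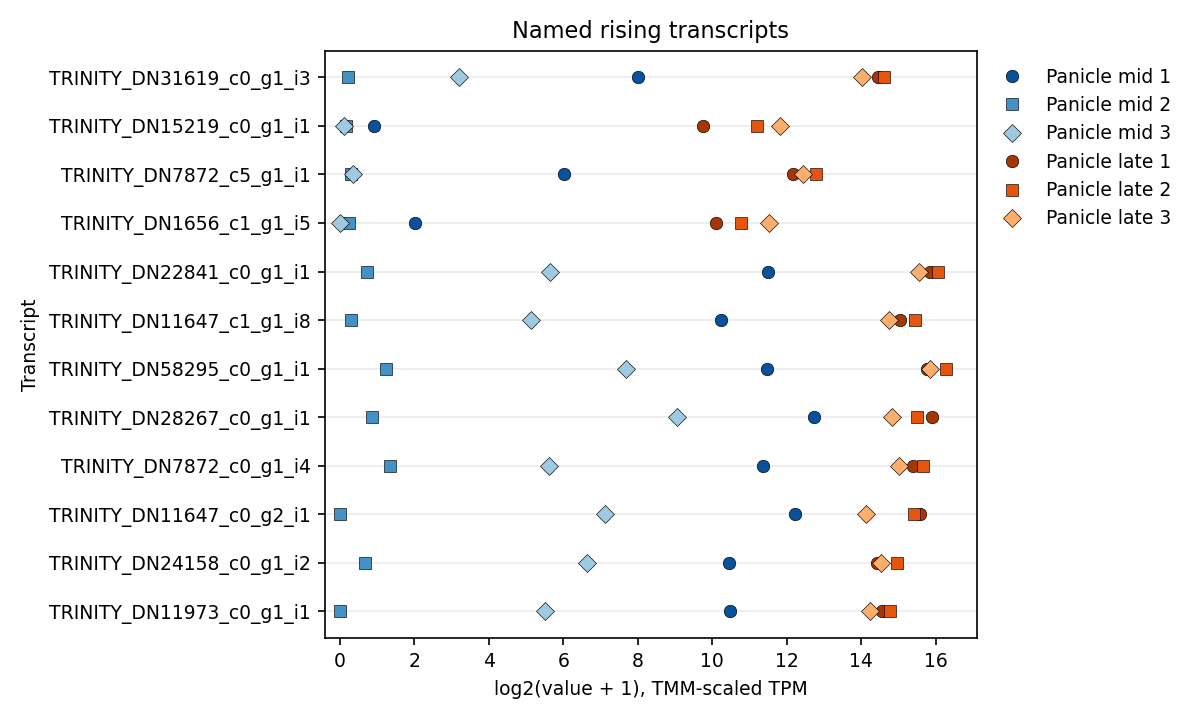
Values of the 12 named rising transcripts in the 3 panicle mid (blue) and 3 panicle late libraries (orange), as log2(value + 1) on the x axis; each point is 1 library. The mid libraries of most transcripts are spread out, and library 1 is the highest mid library in all 12. TRINITY_DN15219_c0_g1_i1 and TRINITY_DN1656_c1_g1_i5 stay at values of 3.03 or below in all mid libraries and are highest in late library 3.

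Germinating seed was the tissue outside the compared stages where rising transcripts were most often highest. Of the 8 other tissues it had the highest mean for 673 of the 2176 (30.9%, against 12.6% of all transcripts tested), followed by young leaf with 391 (18%, against 13.6%). The rising transcripts held 3.95% to 5.19% of the germinating seed totals and 4.75% to 5.29% of the young leaf totals. In 1483 of them (68.2%) the late panicle was the highest of the 10 tissues, against 7.03% of all transcripts, a share that the choice of rising transcripts favours.

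Rising transcripts that were also present in germinating seed differed among the late libraries. For 1244 rising transcripts with a germinating seed mean of 1 or more, late library 3 exceeded late library 1 by a median log2 difference of 0.67, and it was the highest late library for 62.5%. For 932 rising transcripts with a germinating seed mean below 1 the median was -0.05, and late library 3 was highest for 36.9%. Over all transcripts tested that were present in late panicle, the medians were 0.00 and -0.01 for the same seed levels. The median rose to 0.97 for 77 rising transcripts with a germinating seed mean of 100 or more. Over all tested transcripts of that seed level that were present in late panicle it was 0.10.

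TRINITY_DN10028_c0_g1_i2, chosen after its values were seen, shows this case: it had 707, 3222 and 5774 in late libraries 1, 2 and 3 and 135 ± 111 in germinating seed. Its mid values were 31.1, 0.211 and 0.896 (log2 difference 9.14, limma adjusted p = 1.8e-07). By summed share the order of the late libraries was not the same: rising transcripts with a germinating seed mean of 1 to 10 held 32.3%, 32.4% and 24.9% of late libraries 1, 2 and 3.

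How far each library lay toward the other stage was measured on transcripts it had not helped to choose. Transcripts were called in a fit without the library, and its own log2 value was placed on a scale from 0, the mean of the other mid libraries, to 1, the mean of the other late libraries. On 2447 rising transcripts mid library 1 lay at a median of 0.34 (quartiles 0.00 and 0.70), and 37.9% of them were nearer to late than to mid. Mid libraries 2 and 3 lay at -0.02 and 0.00 on 1703 and 1744 rising transcripts, with 5.17% and 7.74% nearer to late. For these libraries mid library 1 entered both the 0 point and the choice of transcripts. The positions of the mid libraries therefore rest on unlike scales and sets, for rising and falling transcripts alike.

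Falling transcripts gave mid library 1 a larger shift. It lay at a median of 0.53 on 4786 falling transcripts, with 52.5% nearer to late, where mid libraries 2 and 3 lay at -0.02 and -0.15. Mid library 1 held 9.67% of its total in the rising and 11.4% in the falling transcripts called without it, against 1.65% to 2.13% and 20.0% to 22.8% in the other mid libraries. Those other libraries helped to choose these transcripts, which favours the gap. Left out in turn, mid libraries 2 and 3 held 1.43% and 1.63% in the rising transcripts called without them. In the falling ones they held 13.8% and 14.5%.

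For the 37 abundant rising transcripts, all of which were called without mid library 1, its median position was 0.61 (quartiles 0.44 and 0.71). The 37 were first chosen in the fit with mid library 1, so that library helped to choose them. On the rising transcripts called without it that had a germinating seed mean of 100 or more, its median position was 0.22. Late library 1 was the late library nearest to mid on rising transcripts, at a median of 0.68, against 0.98 and 0.97 for late libraries 2 and 3. On falling transcripts the 3 late libraries lay at 0.93, 0.90 and 1.0. Whether mid library 1 was sampled later, or from a panicle further along, was not tested.

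**Figure D4:**
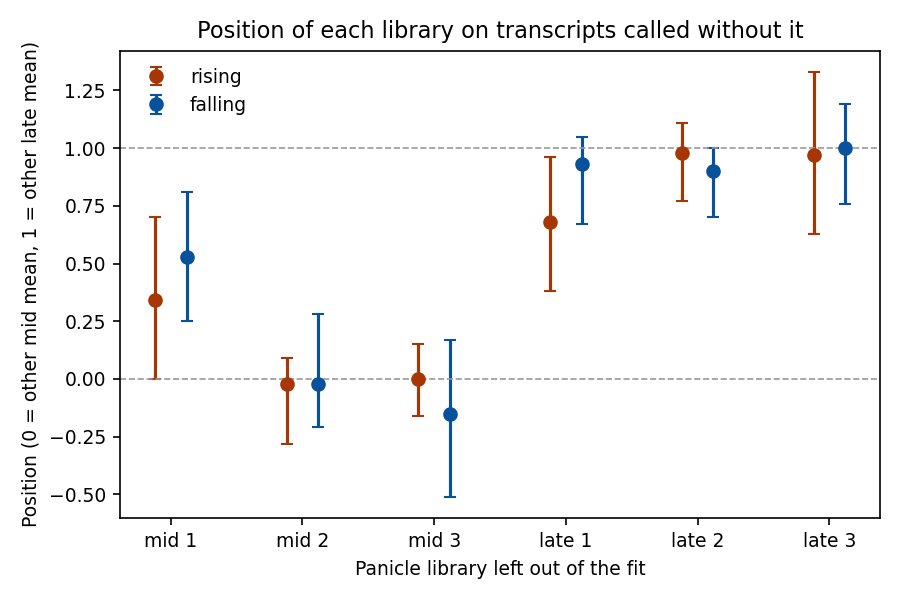
Position of each panicle library (x axis) between the mean of the other mid libraries (0) and of the other late libraries (1) on the y axis, over transcripts called as rising or falling in the fit without that library; points are medians and bars run from the lower to the upper quartile over transcripts. Mid library 1 lies at 0.34 for rising and 0.53 for falling transcripts, apart from mid libraries 2 and 3 at -0.15 to 0.00. For mid libraries 2 and 3 the other mid libraries include mid library 1, so the scales differ.

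Falling transcripts were mostly of low to moderate level. Of the 3999, 2198 had a mid mean below 10, 1566 one of 10 to 100, 231 one of 100 to 1000 and 4 one above that. Their median value was 3.02 in early panicle, 8.36 in mid panicle and 1.37 in late panicle. In 2125 of them (53.1%) the mid panicle was the highest of the 10 tissues, against 8.78% of all transcripts tested, a share that the choice of falling transcripts favours. Among the 8 other tissues the early panicle was most often highest, for 1236 (30.9%, against 15.3% of all). In late panicle 683 were listed at 0 in all 3 libraries, and the other 3316 were above 0 in at least 1. Over all 77548 transcripts tested, 49123 were above 0 in at least 1 late library. Such a listing at 0 was thus less common among falling transcripts than over all tested.

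Several of the largest falls were transcripts hardly present outside the mid panicle. TRINITY_DN10968_c0_g1_i1 had 15.2, 130 and 358 in mid libraries 1, 2 and 3 and 0.394, 0.414 and 1.49 in late libraries 1, 2 and 3 (log2 difference -5.75, SE 0.74, limma adjusted p = 1.3e-05). TRINITY_DN13118_c0_g1_i2 had 24.9, 315 and 459 in mid and 3.00, 6.13 and 0.386 in late (-5.51, SE 0.71, adjusted p = 1.3e-05). Neither exceeded a mean of 1.19 in any of the 8 other tissues, early panicle included.

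TRINITY_DN2497_c0_g1_i3 had 17.1, 240 and 371 in mid and 0.476, 1.74 and 2.24 in late, and 0, 3.41 and 8.07 in early panicle (log2 difference -5.64, SE 0.77, limma adjusted p = 2.9e-05). TRINITY_DN13480_c0_g1_i5 was of the same kind at a higher level, with 79.6, 1163 and 2834 in mid and 16.9, 19.7 and 24.9 in late (-4.92, SE 1.0, adjusted p = 0.0019). In all 4 of these transcripts mid library 1 was by far the lowest mid library, yet above every late library. Without mid library 1 their log2 differences were -6.99, -6.81, -6.99 and -6.42.

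A pair of the named falling transcripts was among the 683 listed at 0 in every late library. With depth unknown, a value of 0 need not mean absence. TRINITY_DN43838_c0_g1_i1 had 25.6, 88.3 and 73.4 in mid and was listed at 0 in the 3 late libraries (limma adjusted p = 6.6e-05). TRINITY_DN33146_c0_g1_i1 had 8.48, 70.8 and 126 in mid and was likewise listed at 0 in late (adjusted p = 7.3e-06). Both were present at lower values in early panicle, the former at 17.6, 5.27 and 14.0 and the latter at 4.52, 10.6 and 15.0.

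The largest fall, TRINITY_DN32930_c0_g1_i2, ended a longer presence. It had 84.1, 107 and 113 in early panicle, 63.7, 156 and 323 in mid and 0, 0.950 and 1.28 in late, with late minus mid at -6.50 on the log2 scale (SE 0.69, limma adjusted p = 1.2e-06). Outside the panicle its highest means were in germinating seed (182 ± 170, SD, n = 3) and vegetative stem (92.6). Its call held with only the 6 compared libraries (adjusted p = 0.041).

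TRINITY_DN527_c0_g1_i6 was highest in early panicle, with 117, 503 and 686. Its mid values of 0.874, 78.7 and 380 overlapped those of late panicle (0, 1.21 and 0.181) through mid library 1 alone. The log2 difference was -4.80 (SE 1.06, limma adjusted p = 0.0040) with that library and -6.98 (SE 0.56, adjusted p = 1.4e-08) without it.

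By share of the total, TRINITY_DN24635_c0_g1_i1 and TRINITY_DN26535_c0_g1_i2 led the falls, followed by TRINITY_DN13480_c0_g1_i5, described above, whose share changed by -0.178 percentage points. TRINITY_DN24635_c0_g1_i1 had 6701, 4004 and 3053 in mid and 1460, 1781 and 2456 in late, and a mean of 7800 in radicle. Its log2 difference of -1.23 (SE 0.30, limma adjusted p = 0.0085) shrank to -0.91 (adjusted p = 0.056) without mid library 1 and to -1.05 (adjusted p = 0.051) without late library 1, and each time the call was lost. TRINITY_DN26535_c0_g1_i2 had 4304, 2884 and 2251 in mid and 1267, 1425 and 1367 in late (-1.17, SE 0.29, adjusted p = 0.0093), and without mid library 1 its call was lost as well (-0.91, adjusted p = 0.056).

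TRINITY_DN70730_c0_g1_i2 had 1792, 1049 and 912 in mid and 471, 474 and 455 in late, and its log2 difference was -1.36 (SE 0.27, limma adjusted p = 0.0015). It kept its call without mid library 1 (-1.07, adjusted p = 0.010) but lost it with only the 6 compared libraries (limma adjusted p = 0.71). In TRINITY_DN24635_c0_g1_i1, TRINITY_DN26535_c0_g1_i2 and TRINITY_DN70730_c0_g1_i2 mid library 1 was the highest mid library, so it did not lie toward late panicle there. Their shares of the total changed by -0.467, -0.316 and -0.132 percentage points. Median centring also ended the calls of TRINITY_DN24635_c0_g1_i1 and TRINITY_DN26535_c0_g1_i2 (log2 differences of -0.95 and -0.89).

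TRINITY_DN8588_c0_g1_i29 had 794, 1049 and 787 in mid and 25.2, 33.9 and 18.9 in late (log2 difference -5.05, SE 0.74, limma adjusted p = 6.4e-05). Its mid libraries lay close together, and it passed with only the 6 compared libraries (adjusted p = 0.013). Of the other named falling transcripts, only TRINITY_DN32930_c0_g1_i2 and TRINITY_DN43838_c0_g1_i1 did so. TRINITY_DN8588_c0_g1_i29 was also abundant in young leaf, at 1089 ± 137 (SD, n = 3). TRINITY_DN73622_c0_g1_i1 had 159, 1015 and 1567 in mid and 29.3, 57.1 and 42.5 in late (-3.90, SE 0.75, adjusted p = 0.0012), with 426 ± 31.3 in radicle.

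**Figure D5:**
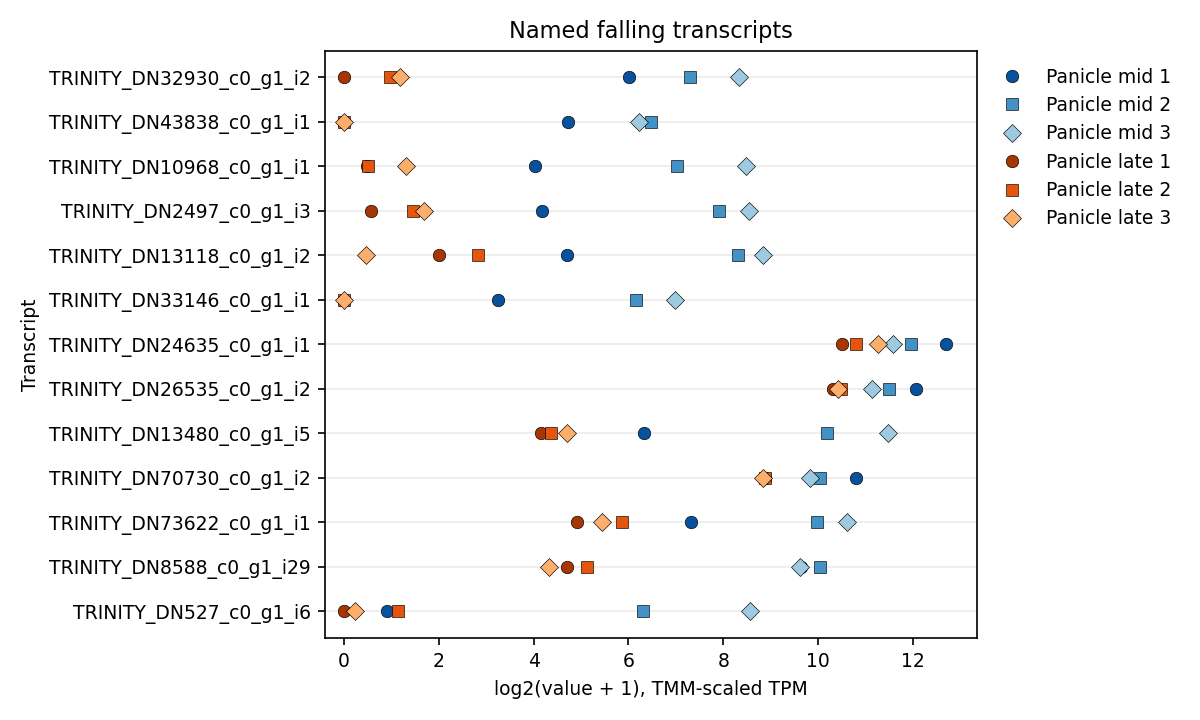
Values of the 13 named falling transcripts in the 3 panicle mid (blue) and 3 panicle late libraries (orange), as log2(value + 1) on the x axis; each point is 1 library. Mid library 1 is the lowest mid library in 9 of the 13, and the groups overlap only for TRINITY_DN527_c0_g1_i6.

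Of the rising transcripts 21.1% shared a read cluster with another tested transcript, and of the falling ones 24.3% did, against 16.3% of all tested. The 2176 rising transcripts lay in 2102 read clusters, of which 70 held more than 1 of them, and the 3999 falling ones lay in 3848, of which 144 did. In 27 read clusters some transcripts rose and others fell.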

How the data were processed

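RNA of 28 libraries was sequenced, and 6 of them are compared here. The authors used Trinity for assembly and kallisto for TPM, per the design text of the series. CASAVA and Trimmomatic are also named in the submitters' processing notes. Tool versions: not given in the sources used here. Deposited values are a non-negative expression signal per transcript, scaled by TMM per the name of the table. They keep no read totals, so depth is unknown and neither count models nor counting intervals were used; a library taken up by few transcripts leaves fewer reads for the others.

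Every column matched 1 sample by the code in its title. Transcripts at 1 or more in at least 2 libraries were tested with limma 3.58.1 (R 4.3.3) as log2(value + 1), fitting 1 mean for each tissue over all 28 libraries and an intensity trend (18 residual degrees of freedom). Differences on this scale understate changes of low transcripts. A call needed a two-sided p, adjusted by Benjamini-Hochberg, below 0.05 together with a log2 difference of 1 or more in either direction. The fit was also run on simulated data with the same spread in every tissue, which held no deviating library such as mid library 1. Shares, positions and exact permutation tests were computed in Python 3.11.15 (pandas 2.3.3, numpy 2.4.6, scipy 1.17.1).

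Named transcripts were, among those called, the 6 largest rises and the 6 largest falls without overlap of the groups, the 8 largest gains and 6 largest losses of share, and the 4 largest rises and 4 largest falls in the fit without mid library 1; any other was picked from its values, as stated beside it. The comparison, these rules and the alternatives were chosen with earlier results of these data known. The alternatives were other pseudocounts, filters, scalings, variance settings, thresholds, blocking on the replicate number, a covariate for the library identifier series, fewer libraries in the fit and leaving out each compared library. All 6 compared libraries carry identifiers of the same series; the labels do not say which RNA extraction method each library had. Deviations of same-numbered mid and late libraries from their group means correlated at 0.014, 0.003 and -0.034.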

Additional observations from a re-analysis of the deposited data

How the results depend on the processing

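Whether the replicate numbers pair the libraries is not known from the labels. With the replicate number as a block, 2150 transcripts rose and 3954 fell, against 2176 and 3999. The gain and loss of share then moved by less than the SD. With only the 6 compared libraries and the replicate block, limma called 0 rising and 0 falling transcripts, with 3704 and 6009 at an unadjusted p below 0.05, and no share could be given. Rises and falls numbered 1224 and 1730 with a pseudocount of 5, 933 and 1159 at a log2 difference of at least 2, 205 and 247 with only the 6 compared libraries, and 1059 and 1614 with only the 9 panicle libraries. Falls numbered 10337 with a common sum and 2310 with median centring. Chosen after the data were seen, the fit of the 6 libraries with rows at 1 or more in at least 2 of them called 1142 and 1838, and the compared libraries without mid library 1 gave 437 and 1210. Leaving out 1 library gave 1703 to 2447 rises and 2810 to 4786 falls.

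The gain of share by rising transcripts (44.5 percentage points) was 37.8 after quantile normalization, 1.67 with only the 6 libraries, 8.06 with the 9 panicle libraries, 11.9 with the 6 libraries and their own filter, and 6.97 with the compared libraries without mid library 1; without 1 library it ran from 42.1 to 47.1. The change of share of falling transcripts (-13.6) was -26.6 with a common sum, -9.60 with median centring, -6.71 at a log2 difference of at least 2, -1.06 with only the 6 libraries, -5.19 with the 9 panicle libraries, -8.52 with the 6 libraries and their own filter, and -6.23 with the compared libraries without mid library 1; without 1 library it ran from -18.2 to -9.82. The share of the 10 most abundant transcripts differed by 26.0 to 30.4 percentage points without 1 library, and the number of transcripts at 1 or more by -3378 to -2192; the latter was -6365 with a common sum and -1566 for a value of 5. No named transcript changed direction under any alternative; 5 of the 25 were called with only the 6 libraries, 14 with the 6 libraries and their own filter, and 9 with the 9 panicle libraries. Read depth, which these values do not hold, sets how low a transcript can be measured.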
